A study of Mus musculus with 18 samples.

Results

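The genes described are 33 named genes of the lysosome and of autophagy, measured in mouse embryonic stem cells (ESCs) on 18 Affymetrix arrays. They were chosen by name, with earlier results of these data known. Each was read from the probe set that the platform annotation pairs with its symbol alone, and from the one with the highest mean over the 18 arrays where there were several. A probe set was found for 32 of the 33, out of 18193 genes with one, and Cd63, a tetraspanin of lysosomal membranes, has no value here. All 32 passed the level filter of every tested comparison, which asked for a log2 level above 4.64 in at least 2 samples of the fit. They comprised 12 hydrolases, 3 hydrolase cofactors or lumenal proteins, 5 membrane proteins, 5 proton pump genes, 5 autophagy genes and 2 transcriptional regulators.

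The parental cells were EBRTcH3 ESCs, a male 129SV line, cultured with LIF and serum or under 2i conditions. LY294002, an inhibitor of the kinase PI3K, was applied for 5 days to parental cells in serum (2 untreated and 2 treated samples) and in 2i (1 of each), and for 2 days to parental cells in serum (1 sample). Derivatives overexpressing wild-type c-Myc or c-Myc(T58A) were sampled once each untreated, at day 2 and at day 5, in serum. Max-null ESCs, used according to the design text to ablate Max expression, were treated with doxycycline (Dox). They were sampled once each without Dox and at days 4 and 6 of Dox. Max-null ESCs that overexpress p110 alpha, the catalytic subunit of PI3K, were sampled once without and once with Dox, for a time the labels do not give. The labels give the same line for the Max-null cells. No line without the Max-null change received Dox and no Max-null line received LY294002. Each treated sample has 1 named untreated reference, and the day 2 and day 5 samples of a line share it. The labels do not say whether a line is 1 clone, and no label states separate cultures, so the p-values below measure the spread between these samples.

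Lysosomes are acidified compartments in which hydrolases break down proteins, glycolipids and glycosaminoglycans delivered by endocytosis and autophagy. Their acid interior is kept by the vacuolar proton pump, and highly glycosylated membrane proteins line them. Many of their genes are transcribed under TFEB, TFE3 and MITF, basic helix-loop-helix factors that bind E-box sequences and whose entry into the nucleus is held back by phosphorylation downstream of mTORC1, a kinase complex that PI3K signalling activates. Myc-Max dimers bind the same CACGTG core.

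Promoter windows of 250 bases before to 50 bases after the annotated start (RefSeq, GRCm38.p6) were found for 28 of the 33 genes, in 33 windows. The core CACGTG, searched on both strands, was in windows of 9 of these genes (27.27% of their windows), against 8.72% of 18109 windows of genes on the array. The longer TCACGTGA, which contains the core, was in 6 genes (18.18% of windows, against 1.37%), and GTAAACA, a FOXO-type motif, in 0 (0.0% against 2.98%). A match is a description of letters and does not show that a factor binds there. The windows of the genes with a core are shown because the regulators listed above are themselves among the measured genes. Capitals mark TCACGTGA or, where its outer letters differ, CACGTG, and each stretch is written 5′ to 3′ on the strand of its gene.
Atp6v0d1, chr8:105566035-105566094, minus strand: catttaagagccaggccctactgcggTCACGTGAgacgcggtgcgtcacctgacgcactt
Atp6v1a, chr16:44139358-44139417, minus strand: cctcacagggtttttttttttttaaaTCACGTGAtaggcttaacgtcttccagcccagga
Ctsa, chr2:164833734-164833810, plus strand: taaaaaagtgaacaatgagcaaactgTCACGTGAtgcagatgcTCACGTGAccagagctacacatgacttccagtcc
Ctsd, chr7:142388041-142388077, minus strand: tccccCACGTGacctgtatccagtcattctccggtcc
Ctsd, chr7:142387893-142387952, minus strand: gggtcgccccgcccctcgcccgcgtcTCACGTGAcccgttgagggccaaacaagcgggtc
Ctsl, chr13:64370725-64370770, minus strand: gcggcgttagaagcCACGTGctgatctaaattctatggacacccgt
Gla, chrX:134601167-134601255, minus strand: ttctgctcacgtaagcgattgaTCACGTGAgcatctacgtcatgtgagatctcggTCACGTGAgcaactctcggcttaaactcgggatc
Glb1, chr9:114401004-114401061, plus strand: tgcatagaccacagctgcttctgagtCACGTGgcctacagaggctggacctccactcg
Lamp1, chr8:13159074-13159177, plus strand: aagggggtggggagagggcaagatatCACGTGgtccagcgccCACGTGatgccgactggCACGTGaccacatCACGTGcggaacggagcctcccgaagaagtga
Mcoln1, chr8:3500422-3500506, plus strand: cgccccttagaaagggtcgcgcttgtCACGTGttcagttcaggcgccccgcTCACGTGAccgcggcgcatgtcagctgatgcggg

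Ctsa carried TCACGTGA both 13 bases before and 5 bases after its start, Ctsd 99 bases before and Atp6v0d1 4 bases before. Lamp1 carried 4 cores between 61 and 15 bases before its start, none of them within TCACGTGA. No window of Hexa, Tpp1, Tfeb or Tfe3 held CACGTG. Of the genes that were lower at day 5 of LY294002 in the test described below, 7 of the 16 with a window held the core and 4 held TCACGTGA, and of the other 11 measured genes with a window 2 held each.

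The identity of the samples was checked first. The 6 ESC markers (Pou5f1, Nanog, Sox2, Utf1, Zfp42, Dppa5a) lay above 4.64 on every array, with means of 12.2 to 12.8 (log2). Max read 8.17 to 8.71 on the 13 arrays without the Max-null change, 7.09 in Max-null ESCs without Dox and 6.89 and 7.18 with it, and 6.70 and 6.33 in the p110 alpha line without and with it. Myc read 7.51 and 6.99 in the untreated wild-type and T58A c-Myc lines against 7.43 in parental replicate 2, and Pik3ca, which encodes p110 alpha, 8.82 against 8.50 in untreated Max-null lines with and without the transgene. Which part of each gene the probes cover was not given, so Myc and Pik3ca do not check the labels of the overexpressing lines. Max was not lower at day 6 than without Dox, and its 1 probe set does not check the Dox labels, so the Dox comparisons below are between samples as labelled. Array medians were 5.03 to 5.05 for 4 arrays (both of 2i, both of replicate 1 in serum) and 5.31 to 5.52 for the remaining 14. Values of the first set carry up to 10 significant digits and those of the second 7, so the arrays appear to come from separate normalization runs, which no label states. Apart from the 8-sample fit without a replicate block, no comparison below takes a level of one set against the other. Precision is limited throughout by how few arrays each group has.

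**Figure D1:**
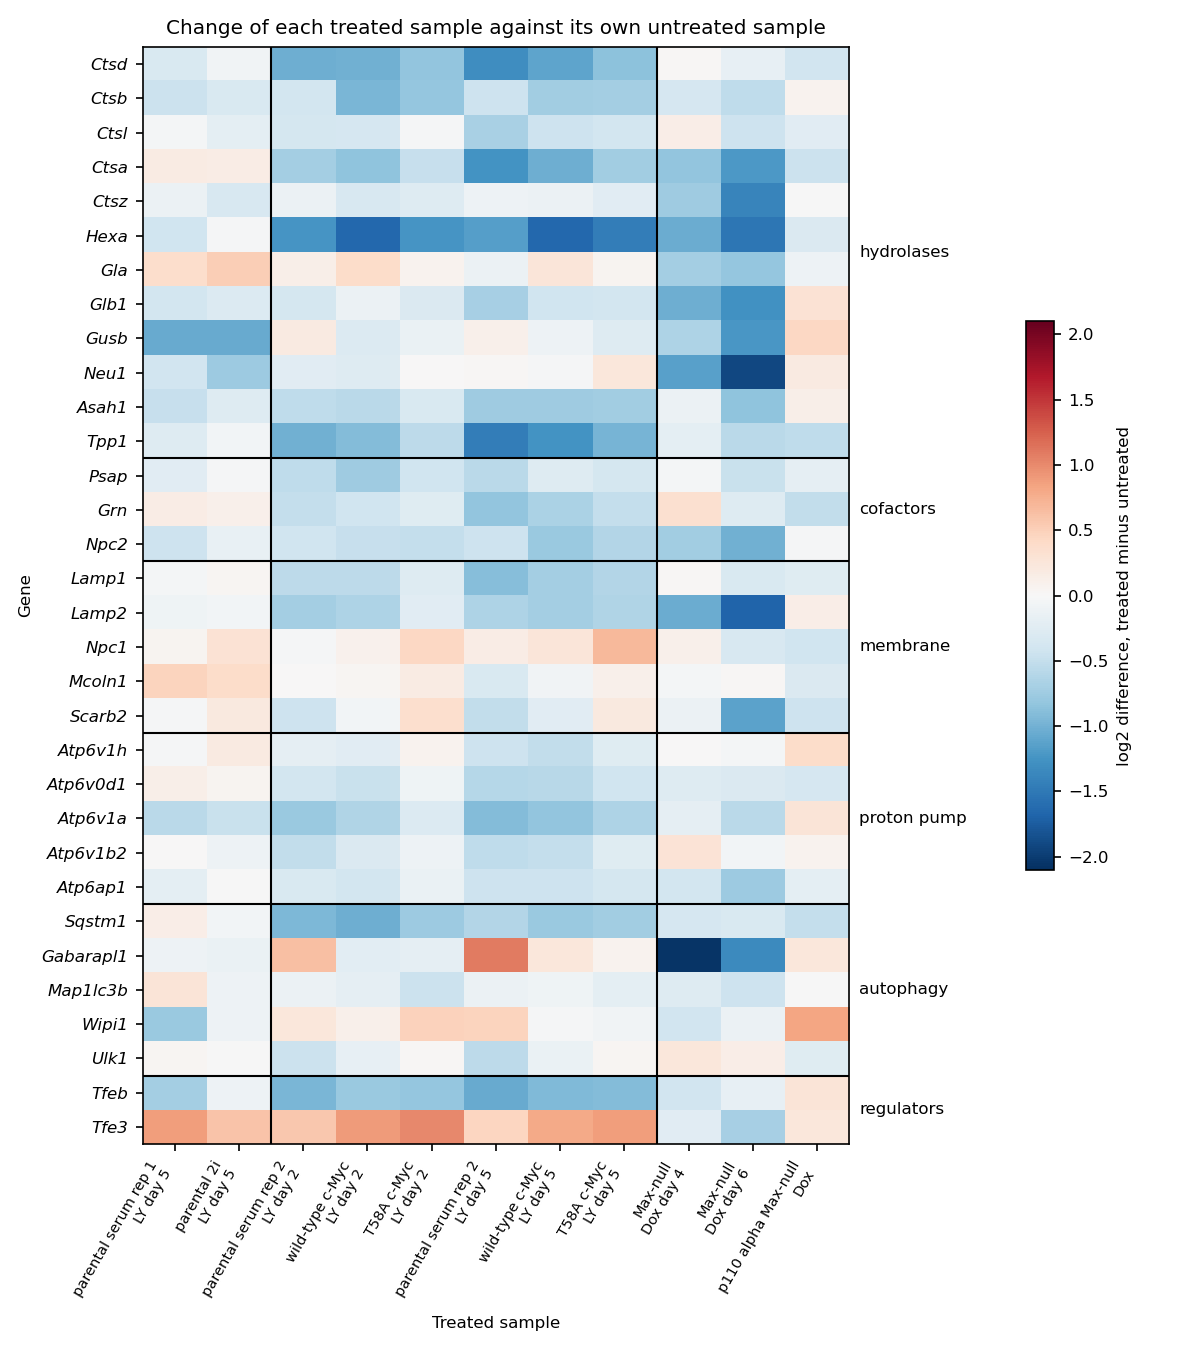
Each cell is the log2 difference of 1 treated sample (columns) from its own untreated sample for 1 gene (rows, by role), blue where lower and red where higher. Blue runs through the 6 LY294002 columns of parental replicate 2 and the c-Myc lines for most genes, Tfe3 is red in all 8 LY294002 columns, and the deepest blue lies at Gabarapl1 (-2.06) at Dox day 4 and Neu1 (-1.92) at Dox day 6 in Max-null ESCs.

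LY294002 at day 5 in the 3 serum lines read together (parental replicate 2 and the lines with wild-type or T58A c-Myc) lowered most of the measured genes. Of the 32, 20 fell and 2 rose at an adjusted p under 0.05 (limma, line as a block, Benjamini-Hochberg over 13420 genes). Over all genes tested the shares were 18.5% lower and 25.7% higher. The median change of the 32 was -0.47 (log2), against 0.05 over all genes. By role, 8 of 12 hydrolases fell, as did 3 of 3 cofactors or lumenal proteins, 2 of 5 membrane proteins, 5 of 5 proton pump genes, 1 of 5 autophagy genes and 1 of 2 regulators. The 22 that passed had 1 direction in all 3 lines, with sizes of 0.37 to 1.42 (log2), and 4 of them reached 2-fold. The calls came from the same 3 lines, so the shared direction is no separate check. Its share among all genes that passed was not counted.

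At day 2, 18 of the 32 fell and 1 rose by the same fit, against 12.3% and 18.3% of all genes, with a median of -0.30 against 0.04. Those that fell were 7 hydrolases, 3 cofactors, 2 membrane proteins, 4 proton pump genes, 1 autophagy gene and 1 regulator. Without the wild-type c-Myc line, the count at day 2 was 6 in place of 19 (7.62% of all genes). It was 15 without parental replicate 2 (22.0%) and 18 without the T58A line (23.6%). In a fit of all 18 arrays it was 6 at day 2 (2.52% of all genes) and 11 in place of 22 at day 5 (13.0%). The day 5 change of that fit also takes in parental replicate 1, and its spread also takes in the Dox samples. A call lost there, here and below, is therefore not from a refit of the same 3 lines alone. Both days use the same 3 untreated samples, so they are not independent of each other.

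**Figure D2:**
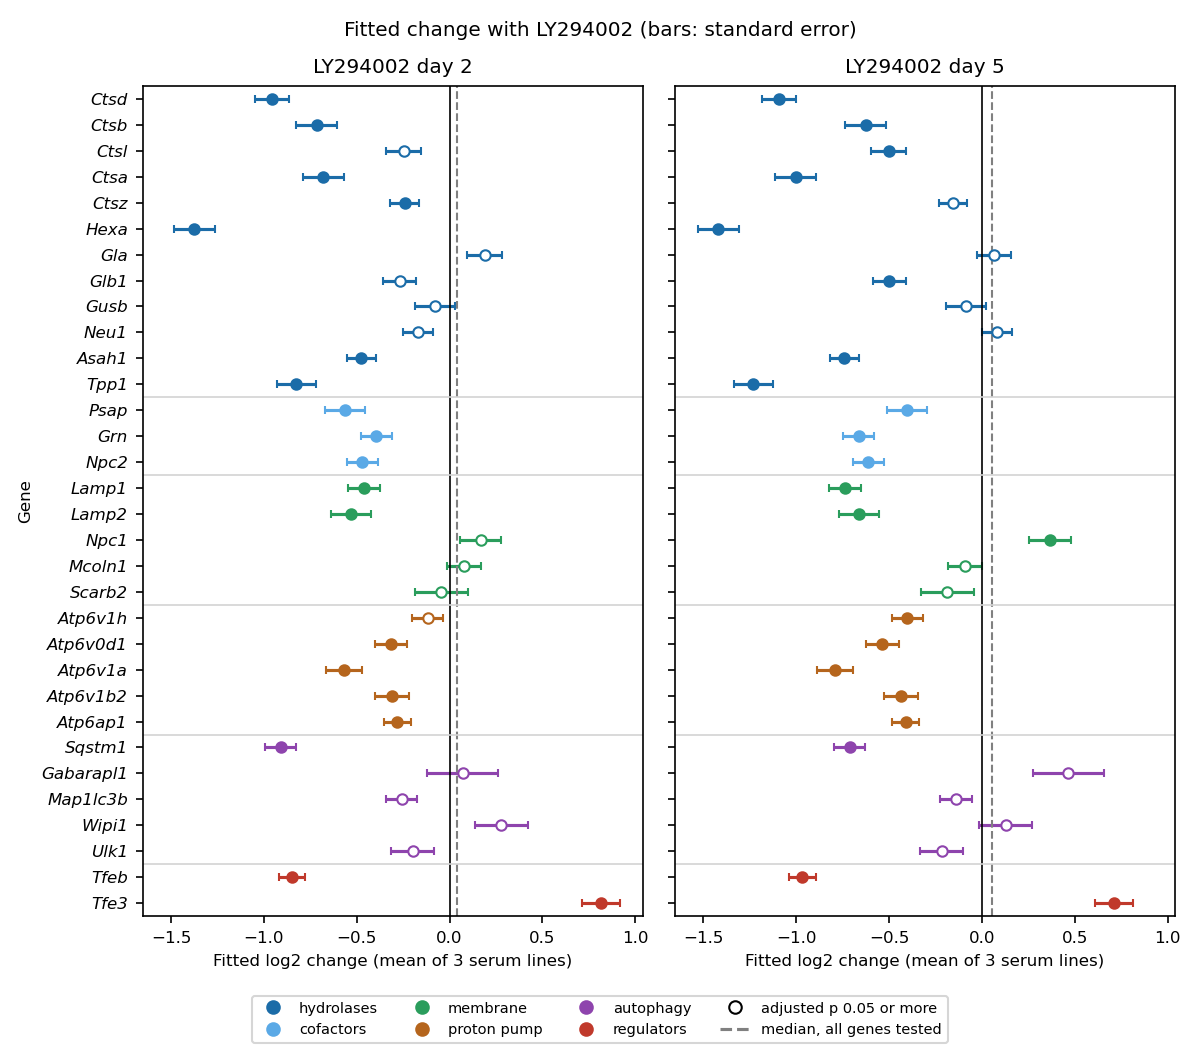
Points are limma's fitted log2 change with LY294002 at day 2 (left) and day 5 (right) over the 3 serum lines, bars its standard error, filled where the adjusted p is under 0.05, and coloured by role. Hexa lies farthest to the left at both days (-1.38 and -1.42) and Tfe3 farthest to the right (0.82 and 0.71), while the dashed median of all genes lies at 0.04 and 0.05.

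Among the hydrolases, Hexa, the alpha subunit of the beta-hexosaminidase that degrades GM2 ganglioside, showed the largest change. Levels (log2) are given here and below in the order parental replicate 2, wild-type c-Myc, T58A. For Hexa the level was 12.06, 12.10 and 11.94 untreated, 10.82, 10.44 and 10.70 at day 2, and 10.90, 10.44 and 10.49 at day 5. All 6 treated samples lay below all 3 untreated ones. Such separation, here and below, describes genes that passed on the same arrays and is no separate check. Its share over all genes was not counted. Hexa fell 2.59-fold at day 2 (-1.38 ± 0.11, SE, adjusted p = 0.000477, limma) and 2.68-fold at day 5 (-1.42 ± 0.11, adjusted p = 0.000161).

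Ctsd, the aspartic protease cathepsin D, went from 10.89, 10.66 and 10.43 untreated to 9.86, 9.65 and 9.60 at day 2 and 9.58, 9.55 and 9.56 at day 5. The treated samples again lay below every untreated sample, and the 3 lines lay closer together at day 5 than untreated. The fitted change was -0.96 ± 0.09 at day 2 and -1.10 ± 0.09 at day 5 (limma adjusted p = 0.000727 and 0.000193).

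Tpp1, the tripeptidyl peptidase lost in a form of childhood neuronal ceroid lipofuscinosis, read 11.74, 11.48 and 11.10 untreated, 10.73, 10.57 and 10.55 at day 2, and 10.28, 10.23 and 10.12 at day 5. It fell by 0.83 (log2) at day 2 and by 1.23 at day 5 (SE 0.10 for both, limma adjusted p = 0.0017 and 0.000195). Its day 2 call was lost in the fit of all 18 arrays (adjusted p = 0.0936). In each line its day 5 level was below its day 2 level. Its change between the days, -0.41 ± 0.10, had the smallest adjusted p among the 32 (0.0838), which did not pass.

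Ctsa, the protective protein that stabilises beta-galactosidase and neuraminidase, read 11.29, 11.07 and 10.83 untreated, 10.57, 10.22 and 10.35 at day 2 and 10.03, 10.05 and 10.10 at day 5. It fell 1.60-fold at day 2 and 2.00-fold at day 5 (limma adjusted p = 0.00436 and 0.000486). Its treated samples did not overlap its untreated ones at either day. In the fit of all 18 arrays the call held at neither day (adjusted p = 0.287 at day 2 and 0.0604 at day 5), and at day 2 it was also lost without the wild-type c-Myc line.

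Asah1, acid ceramidase, read 11.68, 11.37 and 11.18 untreated, 11.14, 10.81 and 10.86 at day 2 and 10.93, 10.64 and 10.45 at day 5, a fall of 0.48 and 0.74 (log2, SE 0.08). Ctsb, the cysteine protease cathepsin B, read 10.01, 10.25 and 10.20 untreated, 9.63, 9.30 and 9.39 at day 2 and 9.58, 9.52 and 9.48 at day 5, a fall of 0.72 and 0.63 (SE 0.11). For both genes every treated sample lay below every untreated one, and their limma adjusted p-values were 0.00432 and 0.00337 at day 2 and 0.000392 and 0.0032 at day 5. At day 2 the Asah1 call held under 8 of 11 alternative settings (adjusted p up to 0.26), and that of Ctsb was lost without the wild-type c-Myc line. Ctsl, cathepsin L, and Glb1, beta-galactosidase, each fell by 0.50 at day 5 (limma adjusted p = 0.00436 and 0.00321) and did not pass at day 2 (-0.25 and -0.27). The day 5 call of Ctsl held under 8 of 11 settings (adjusted p up to 0.14). That of Glb1 was lost in the fit of all 18 arrays (adjusted p = 0.209).

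Other hydrolases moved little or not together. Ctsz, cathepsin Z, fell by 0.24 at day 2 with an adjusted p of 0.0493 (limma), a call that held under 4 of 11 alternative settings, and did not pass at day 5 (-0.15). Gla (alpha-galactosidase A), Gusb (beta-glucuronidase) and Neu1 (neuraminidase) passed at neither day, with fitted changes between -0.17 and 0.19. Their treated and untreated samples overlapped at day 5.

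All 3 cofactors or lumenal proteins fell at both days, but in the fit of all 18 arrays Npc2 alone kept its call at day 5 and none did at day 2. Grn, progranulin, read 12.48, 12.12 and 11.93 untreated, 11.98, 11.70 and 11.68 at day 2 and 11.65, 11.46 and 11.44 at day 5, and fell by 0.39 and 0.66 (SE 0.08, limma adjusted p = 0.0109 and 0.000737). Its probe set is of a kind that can bind related transcripts, and 1 other of its probe sets without that mark gave mean changes of -0.52 and -0.93. Npc2, which carries cholesterol out of the lumen, read 11.90, 11.92 and 11.78 untreated, 11.48, 11.44 and 11.28 at day 2 and 11.47, 11.14 and 11.17 at day 5, and fell by 0.47 and 0.61 (SE 0.09). Psap, the precursor of the saposins that present glycolipids to hydrolases, read 11.08, 10.55 and 10.51 untreated, 10.55, 9.81 and 10.10 at day 2 and 10.52, 10.27 and 10.14 at day 5. Psap fell by 0.56 and 0.40 (SE 0.11), but its groups overlapped, since the treated parental samples lay above the untreated T58A sample. Its day 5 call held under 7 of 11 settings and was lost without parental replicate 2, without the T58A line, without the line as a block and in the fit of all 18 arrays (adjusted p up to 0.172).

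The membrane proteins were divided. Lamp1, which together with Lamp2 makes up much of the lysosomal membrane protein, read 13.05, 12.80 and 12.69 untreated, 12.50, 12.25 and 12.42 at day 2 and 12.16, 12.08 and 12.08 at day 5. Lamp2 read 11.07, 10.74 and 10.50 untreated, 10.36, 10.09 and 10.26 at day 2 and 10.43, 10.02 and 9.87 at day 5. Both fell at both days, Lamp1 by 0.46 and 0.74 (SE 0.09) and Lamp2 by 0.53 and 0.66 (SE 0.11), with no overlap of treated and untreated samples. At day 5 the Lamp1 call held under all 11 alternative settings, and that of Lamp2 was lost in the fit of all 18 arrays (limma adjusted p = 0.175). At day 2 both calls were lost in that fit and without the wild-type c-Myc line (adjusted p up to 0.267 for Lamp1 and 0.405 for Lamp2).

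Npc1, the membrane partner of Npc2 in cholesterol export, rose at day 5, by 0.37 ± 0.11 (limma adjusted p = 0.0307). Its level was 8.52, 8.01 and 7.52 untreated and 8.68, 8.25 and 8.20 at day 5, so the groups overlapped, and the increase was 0.16, 0.25 and 0.69 in the 3 lines. The call did not hold without the wild-type c-Myc line, without the T58A line, without the line as a block or in the fit of all 18 arrays (adjusted p up to 0.288). Mcoln1, the calcium channel mucolipin 1, and Scarb2, the receptor that brings glucocerebrosidase to lysosomes, passed at neither day, with fitted changes of 0.08 and -0.04 at day 2 and -0.09 and -0.19 at day 5. Other probe sets gave mean day 5 changes opposite in sign to the one used, 0.57 for Scarb2 and 0.30 for Mcoln1, and another of Mcoln1 gave -0.39.

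All 5 proton pump genes fell at day 5, but Atp6v1a alone kept its call in the fit of all 18 arrays, and Atp6ap1, Atp6v1b2 and Atp6v1h lost theirs without the wild-type c-Myc line. At day 2 the calls of Atp6v1a, Atp6v0d1, Atp6ap1 and Atp6v1b2 held in neither of these fits, and that of Atp6v1b2 held under 5 of 11 settings. Atp6v1a, the catalytic A subunit of the soluble domain, read 11.01, 11.13 and 10.99 untreated, 10.24, 10.49 and 10.70 at day 2 and 10.11, 10.31 and 10.35 at day 5, and fell by 0.57 and 0.79 (SE 0.10, limma adjusted p = 0.00519 and 0.000717). Atp6v0d1, a subunit of the membrane domain, read 11.76, 11.75 and 11.53 untreated, 11.37, 11.28 and 11.43 at day 2 and 11.15, 11.16 and 11.12 at day 5, a fall of 0.32 and 0.54 (SE 0.09). Treated samples of both lay below all untreated samples.

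The other pump genes showed smaller falls. Atp6v1b2 read 10.40, 10.35 and 10.12 untreated, 9.88, 10.04 and 10.01 at day 2 and 9.86, 9.84 and 9.86 at day 5. Atp6ap1, an accessory subunit, read 10.26, 10.17 and 10.08 untreated, 9.94, 9.79 and 9.93 at day 2 and 9.83, 9.74 and 9.71 at day 5. Atp6v1h read 10.49, 10.65 and 10.57 untreated, 10.30, 10.41 and 10.65 at day 2 and 10.05, 10.13 and 10.32 at day 5. At day 5 none of the 3 overlapped its untreated samples. Their fitted day 5 changes were -0.44, -0.41 and -0.40 (SE 0.09, 0.07 and 0.08). At day 2 Atp6v1h did not pass (-0.12), and its T58A sample was then not below the untreated ones.

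Of the autophagy genes, Sqstm1, the cargo receptor p62, was the one that passed. It read 10.43, 10.22 and 10.11 untreated, 9.48, 9.20 and 9.36 at day 2 and 9.81, 9.44 and 9.38 at day 5, a fall of 0.91 and 0.71 (SE 0.08, limma adjusted p = 0.000686 and 0.000618), with no overlap. Gabarapl1, an ATG8-family protein of the autophagosome, differed between lines before treatment. It read 7.47, 8.31 and 8.54 untreated and 8.57, 8.54 and 8.60 at day 5, so that only the parental pair differed by more than 1 on the log2 scale. Its fitted day 5 change was 0.47 ± 0.19 (adjusted p = 0.0865).

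Ulk1, the kinase that starts autophagosome formation, and Wipi1, a phosphoinositide-binding protein of the forming autophagosome, passed at neither day (day 5 changes -0.22 and 0.13). Map1lc3b, which encodes LC3B, did not pass with the probe set chosen by its mean level (-0.26 at day 2 and -0.14 at day 5). The 3 other probe sets of Map1lc3b gave mean day 5 changes of -0.79, -0.89 and -0.70, so its probe sets disagree in size. Among the 22 genes that passed at day 5, 19 further probe sets lay above the level filter and 0 had the opposite sign.

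The regulators moved in opposite directions. Tfeb read 7.73, 7.90 and 7.76 untreated, 6.78, 7.12 and 6.95 at day 2 and 6.67, 6.98 and 6.84 at day 5. It fell 1.80-fold at day 2 (-0.85 ± 0.07, limma adjusted p = 0.000515) and 1.95-fold at day 5 (-0.97 ± 0.07, adjusted p = 0.000142). Tfe3 read 9.19, 8.90 and 8.75 untreated, 9.75, 9.79 and 9.75 at day 2 and 9.64, 9.70 and 9.63 at day 5. It rose 1.76-fold at day 2 (0.82 ± 0.10, adjusted p = 0.00158) and 1.64-fold at day 5 (0.71 ± 0.10, adjusted p = 0.00129). For both genes the 6 treated samples lay apart from the 3 untreated ones, and for Tfe3 the 3 lines lay closer together in treated than in untreated samples. These are levels of RNA, and where the proteins lay in the cell was not measured.

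**Figure D3:**
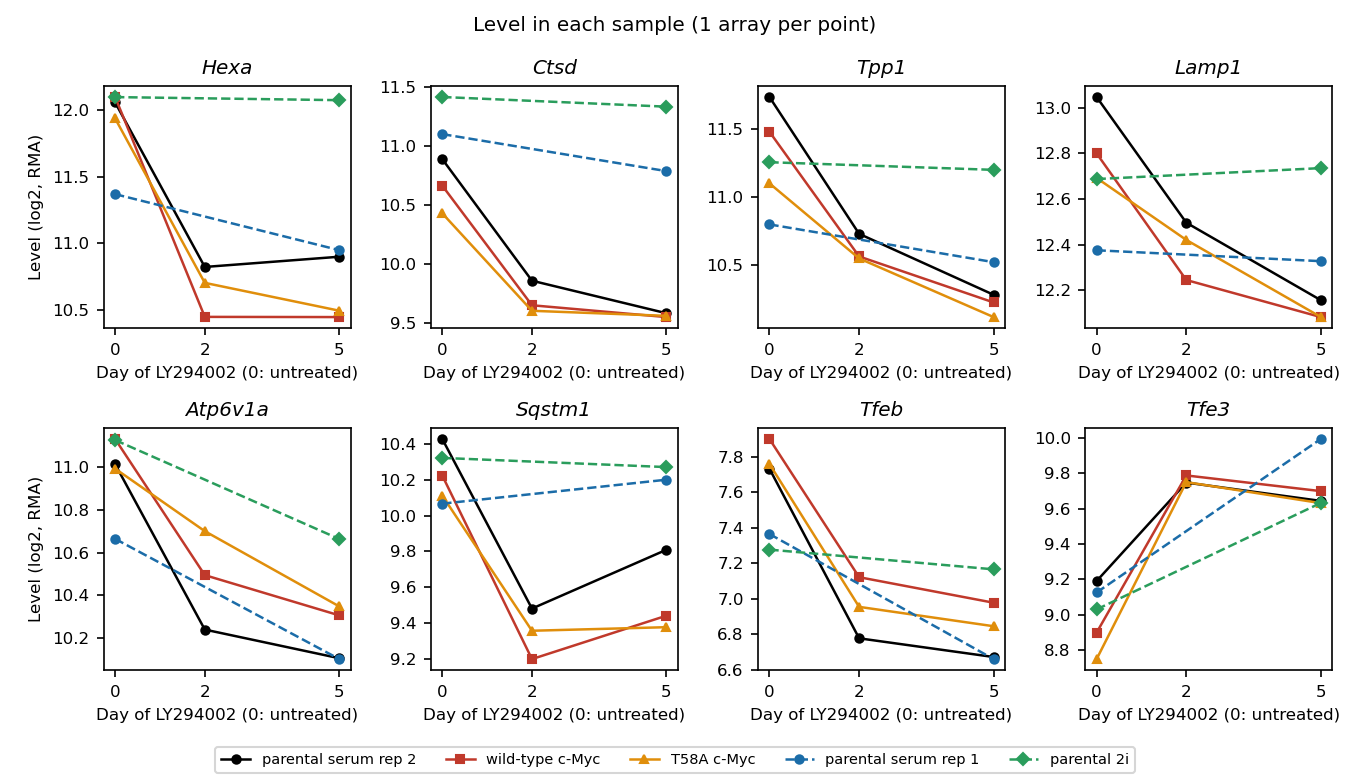
Level (log2, RMA) of 8 genes against the day of LY294002, with 0 for untreated, 1 line per cell line and 1 array per point, and a separate vertical scale for each gene. Solid lines (parental replicate 2 and both c-Myc lines) drop by day 2 for all but Tfe3, which climbs from 8.75 to 9.19 untreated to 9.63 to 9.70 at day 5, and dashed lines are parental replicate 1 and 2i.

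Between day 2 and day 5, 0 of the 32 passed (limma, 2.35% of all genes did). At an unadjusted p under 0.05, 9 were lower and 2 higher at day 5, where 11.6% and 12.0% of all genes were. Among the 9 were Tpp1 (-0.41), Ctsa (-0.32) and Atp6v1h (-0.28), and the 2 higher were Neu1 (0.25) and Sqstm1 (0.20).

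Markers of other cell types moved in the same samples. Of 6 tested trophoblast markers, 4 rose at day 5 (Krt18 by 2.97, Krt8 by 1.99, Eomes by 0.68 and Cdx2 by 0.54, log2), and 0 passed at day 2. The summed level of the 8 trophoblast markers on the linear scale was 1338 to 2153 untreated, 962 to 1762 at day 2 and 2349 to 4260 at day 5. Gata3 and Elf5 stayed below 4.64 in all 9 samples, and the other 6, Cdx2 and Eomes among them, stayed above it. Of 8 tested endoderm markers 1 rose and 1 fell at day 5, and of 6 ESC markers 1 rose and 2 fell. Of 4 neuroectoderm markers 1 rose and 2 fell, of 3 macrophage markers Cd68, itself a lysosomal membrane protein, fell, and of 3 fibroblast markers 0 passed. The part of these genes' cells in the changes above was not tested, and in bulk RNA fewer cells of a type and less RNA per cell cannot be told apart.

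A longer list of 138 other lysosome and autophagy genes gave 125 that could be tested. At day 5, 53 fell and 15 rose (42.4% and 12.0%, against 18.5% and 25.7% of all genes). At day 2, 41 fell and 12 rose (32.8% and 9.6%, against 12.3% and 18.3%). The medians were -0.23 at day 5 and -0.11 at day 2. The falls at day 5 comprised 7 of 10 proton pump genes, 10 of 18 membrane proteins, 10 of 21 regulators, 9 of 25 hydrolases, 11 of 32 autophagy genes, 5 of 17 sorting and fusion genes and 1 of 2 lumenal proteins. The rises comprised 5 hydrolases, 4 autophagy genes, 3 regulators, 2 sorting genes, 1 membrane protein and 0 pump genes.

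Manba, beta-mannosidase, had the largest fall of that list (-1.54 ± 0.12 at day 2 and -1.83 ± 0.12 at day 5, limma adjusted p = 0.000414 and 0.000101), followed by Mitf, the MiT/TFE regulator named above (-1.23 and -1.67, SE 0.18). The level of Mitf was 8.36, 8.18 and 8.11 untreated and 6.40, 6.59 and 6.65 at day 5, with no overlap. The largest rises were of Lamtor2 (1.34 and 1.51), part of the Ragulator complex that anchors mTORC1 on lysosomes, and Ulk2 (1.31 and 1.47), a relative of Ulk1. Lamtor2 stood at 8.74, 9.24 and 9.48 untreated and 10.45, 10.74 and 10.80 at day 5.

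Parental replicate 1, on the other set of arrays, gave a smaller median difference. Its median difference at day 5 was -0.10 against -0.55 in replicate 2, with 21 and 26 of the 32 genes lower. Over all genes the medians were -0.0015 in replicate 1 and 0.07 in replicate 2, with 50.2% and 43.8% lower. Ctsd went from 11.10 to 10.79 in replicate 1, Hexa from 11.37 to 10.95, Tpp1 from 10.80 to 10.52 and Lamp1 from 12.38 to 12.33. Ctsa was higher in its treated sample by 0.17, and Sqstm1 by 0.13. The closest to replicate 2 were Npc2 (-0.43 in both), Ctsz (-0.13 against -0.11) and Ctsb (-0.46 against -0.43). Tfeb differed by -0.71 against -1.06, Atp6v1a by -0.56 against -0.91 and Tfe3 by 0.87 against 0.45. The rises of Lamtor2 and Ulk2 were not seen in this pair (0.09 and -0.09). Mitf differed by -2.24 against -1.97 in replicate 2, and Manba by -1.55 against -2.16. Gusb was 2-fold lower in replicate 1 (7.42 to 6.37), the 1 gene of the 32 to reach 2-fold, where 3.09% of all genes were 2-fold lower, and it differed by 0.11 in replicate 2.

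With both parental replicates in 1 fit together with the c-Myc lines (8 samples, 2 residual degrees of freedom), 0 of the 32 passed in parental cells, where 0.53% of 13404 genes did. At an unadjusted p under 0.05, 11 were lower and 1 was higher, where 11.3% and 10.6% of all genes were. Tfeb had the smallest adjusted p (-0.88 ± 0.13, limma adjusted p = 0.08). Without replicate 1 the same fit called 23 of the 32 and 35.5% of all genes, and without replicate 2 it called 4 and 9.06%, with the lone parental pair then taken to share the spread of the others. In the c-Myc lines Hexa fell (-1.55 ± 0.21, adjusted p = 0.0486), the 1 gene of the 32 that passed, where 1.53% of all genes were lower and 1.09% higher. Ctsb (-0.72), Tfeb (-0.92), Npc2 (-0.70), Asah1 (-0.74) and Tfe3 (0.84) had adjusted p-values of 0.0502 to 0.0597. The c-Myc count was 0 of the 32 and 0.0% of all genes when either c-Myc pair was left out. It was 22 of the 32 and 41.5% of all genes when either parental pair was.

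The day 5 change differed between the c-Myc lines and parental cells for 0 of the 32 genes by the test of that difference, and for 0.0% of all genes (limma, smallest adjusted p 0.996). At an unadjusted p under 0.05 the count among the 32 was also 0, and without parental replicate 2 it was 6 at the adjusted threshold, with 10.1% of all genes. Hexa had a difference of -0.76 ± 0.29 and Tfeb one of -0.04 ± 0.19. Before treatment, the 32 genes had medians of -0.20 in the wild-type and -0.30 in the T58A c-Myc line relative to parental replicate 2, against 0.04 and 0.07 over all genes, in comparisons of 1 sample each that were not tested.

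In 2i medium the lysosomal genes were mostly at a higher level than in serum. Compared within the same set of arrays, 27 of the 32 were higher in untreated 2i cells than in untreated serum replicate 1, with a median difference of 0.43 against 0.02 over all genes, and 29 were higher at day 5 of LY294002 (median 0.40 against 0.02). All 12 hydrolases and all 3 cofactors were higher in both states. Ctsb (11.17 against 9.93) and Lamp2 (10.78 against 9.69) differed at least 2-fold untreated, where 3.05% of all genes were 2-fold higher. Npc2 read 13.04 against 12.12, Ctsa 10.73 against 9.82 and Atp6ap1 10.98 against 10.10. Scarb2 differed the other way (9.00 against 9.74), and Tfeb and Tfe3 differed by -0.09 and -0.10. There was 1 sample per group, so none of these differences has a replicate check.

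**Figure D4:**
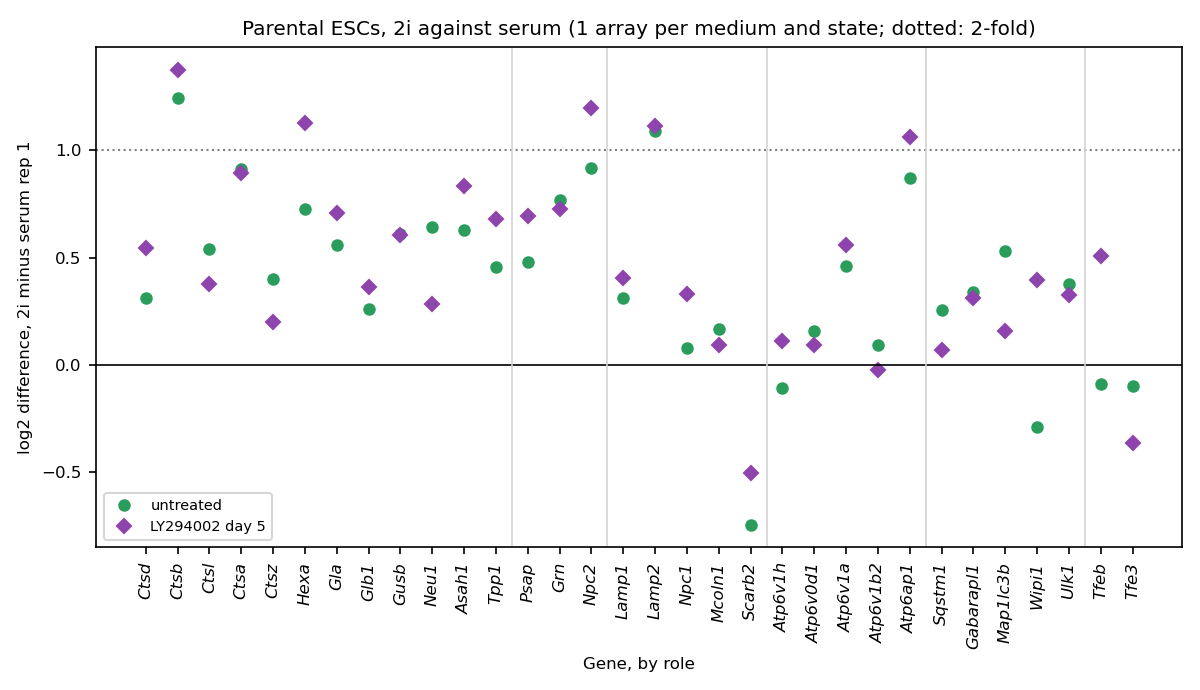
Points are the log2 difference between parental ESCs in 2i and in serum replicate 1 for each gene, untreated (circles) and at day 5 of LY294002 (diamonds), with 2-fold dotted. Hydrolases and cofactors lie above 0 in both states, Ctsb and Lamp2 reach 1.24 and 1.09 untreated, and Scarb2 lies below 0 in both.

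In 2i, levels with and without LY294002 lay close together for most of the genes named so far. The median difference at day 5 was -0.06 over the 32, with 22 lower, against a median of 0.005 and 49.0% lower over all genes. Hexa read 12.10 and 12.07, Ctsd 11.41 and 11.33, Tpp1 11.26 and 11.20 and Tfeb 7.28 and 7.17 without and with the inhibitor. Gusb was again 2-fold lower (8.04 to 6.97), alone among the 32, where 2.23% of all genes were 2-fold lower. Neu1 differed by -0.76, Atp6v1a by -0.46, and Tfe3 by 0.60, from 9.03 to 9.63. Lamtor2 and Ulk2, which rose in the 3 serum lines, differed by 0.20 and -0.49. Mitf and Manba, which fell in those lines, differed by -0.40 and 0.70. These pairs were not tested, and their difference from serum was not tested either.

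The Max-null ESCs labelled as treated with Dox showed another set of differences, in samples where Max itself read 6.89 and 7.18 against 7.09. Of the 32 genes, 24 were lower at day 4 (median -0.27 against -0.09 over all genes) and 30 at day 6 (median -0.55 against -0.09). The 2-fold mark was reached by 5 genes at day 4, where 8.71% of all genes were 2-fold lower, and by 10 at day 6, where 15.6% were. The 5 at day 4 were Gabarapl1, Neu1, Hexa, Lamp2 and Glb1. All 12 hydrolases were lower at day 6 (median -1.03) and the 5 proton pump genes had a median of -0.30. The array of day 6 stood apart, with a median of 5.52 against 5.36 without Dox. With every array centred on its median 32 of 32 were lower at day 6 (median -0.71, all genes -0.25), and after quantile normalization 24 were (median -0.29, all genes 0.02).

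Neu1 had the largest difference at day 6, with 6.81 without Dox, 5.67 at day 4 and 4.89 at day 6. Lamp2 read 10.76, 9.73 and 9.08 in the same order, and Hexa 11.30, 10.26 and 9.78. Ctsz went from 11.20 to 10.46 and 9.81, Glb1 from 10.53 to 9.51 and 9.26 and Gusb from 7.77 to 7.12 and 6.55. All 6 were lower at day 6 than at day 4. Ctsa, Scarb2 and Npc2 also reached 2-fold at day 6 (10.26, 11.09 and 11.88 without Dox, 9.05, 9.98 and 10.88 at day 6), and Scarb2 still read 10.97 at day 4. Gabarapl1 went the other way between the days, from 8.55 to 6.49 at day 4 and 7.20 at day 6. Ctsd read 10.00, 10.02 and 9.82 and Lamp1 12.19, 12.21 and 11.88, a small difference for genes that fell with LY294002 in the other lines. Tfe3 read 9.25, 9.01 and 8.54 and Tfeb 7.52, 7.13 and 7.34.

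In the p110 alpha Max-null line, Dox gave a median difference of -0.07 with 19 of the 32 lower, against 0.07 and 39.7% over all genes. With every array centred on its median 16 of the 32 were lower. None reached 2-fold in either direction, where 2.0% of all genes did. Neu1 read 6.51 and 6.70 without and with Dox, Lamp2 10.81 and 10.96, Glb1 9.79 and 10.09 and Gabarapl1 7.78 and 8.02. Hexa (11.84 and 11.53) and Ctsa (10.64 and 10.19) were lower with Dox. The lowest value was that of Tpp1 (-0.53) and the highest that of Wipi1 (0.83).

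**Figure D5:**
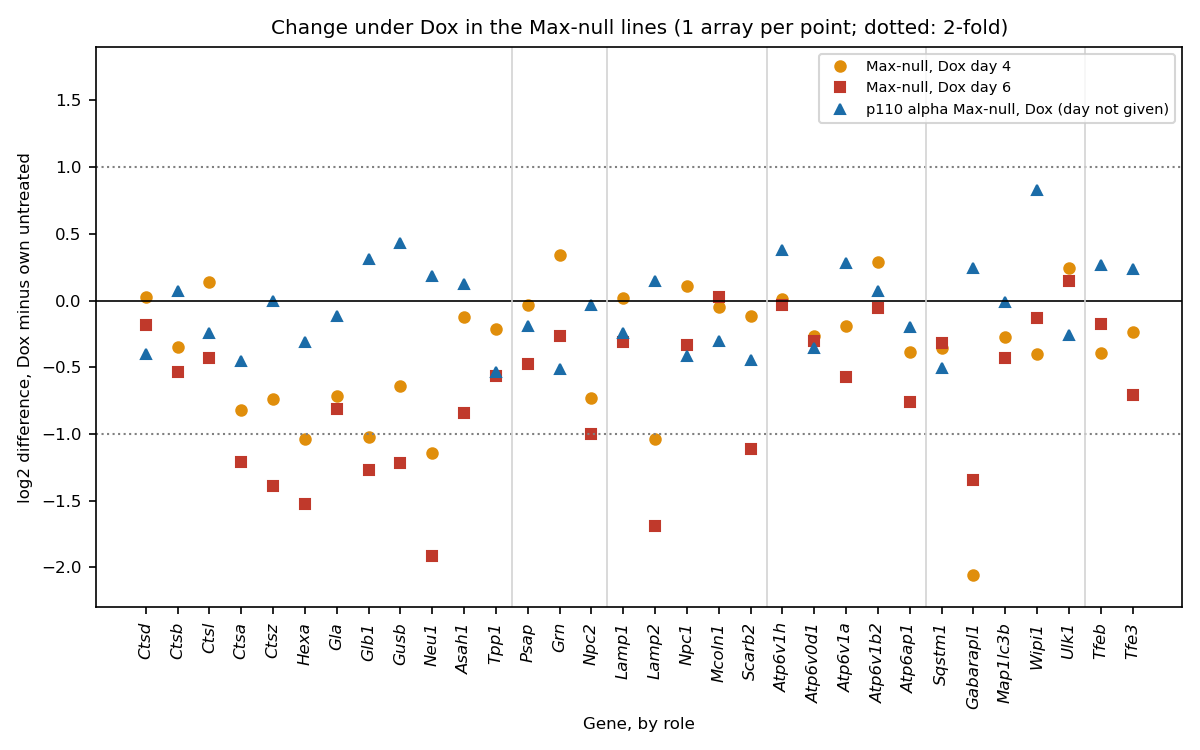
Points are the log2 difference with Dox from the untreated sample of the same line, for Max-null ESCs at day 4 (circles) and day 6 (squares) and for the p110 alpha line (triangles), by gene and role, with 2-fold dotted. Squares reach below -1 for hydrolases such as Hexa (-1.52) and Neu1 (-1.92), and all triangles lie between -0.53 and 0.83.

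The 3 Dox samples tested together (5 samples, line as a block, 2 residual degrees of freedom) gave 0 of the 32 and 0.0% of 13534 genes past the threshold (limma). At an unadjusted p under 0.05, Hexa (-0.86 ± 0.34) and Ctsa (-0.77 ± 0.29) were lower (adjusted p = 0.8 for both), where 1.83% of all genes were. Without the p110 alpha line, 4 genes were lower past the threshold, Gabarapl1, Hexa and Lamp2 among them, where 11.0% of all genes passed, with the spread taken from 2 Dox samples of different days. The summed level of the 10 endoderm markers was 309 in Max-null ESCs without Dox, 595 at day 4 and 743 at day 6, with 4, 7 and 8 of the 10 above 4.64, and that of the 8 trophoblast markers 1890, 1580 and 3219. In the p110 alpha line these sums were 553 and 420 for endoderm and 1566 and 1301 for trophoblast without and with Dox. The mean of the ESC markers was 12.8, 12.8 and 12.4 at the same times in Max-null ESCs. The part of these cell types in the lysosomal values was not tested.

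Without Dox, 20 of the 32 genes were higher in the p110 alpha line than in Max-null ESCs (median 0.16 against -0.06 over all genes). Wipi1 (7.28 against 8.34) was the 1 gene to differ 2-fold, where 6.12% of all genes did. All 5 proton pump genes were higher, by 0.17 to 0.43, and Tpp1 had the largest positive difference (0.81). This comparison of 1 sample each was not tested.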

How the data were processed

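RNA of 18 samples was hybridised to 18 arrays as biotinylated cRNA, per the labels' protocols. The deposited values are log2 levels per probe set, which the authors made by RMA with affy, per the submitters' processing notes; versions are not given in the sources used here. Of 45101 probe sets, 34945 named 1 gene, 932 several and 9160 none, and 64 were controls. Fold changes are differences of the deposited log2 values. Tests used limma 3.58.1 in R 4.3.3 (lmFit, eBayes, 2-sided, Benjamini-Hochberg over all genes of a fit, threshold 0.05), on genes with 2 samples above 4.64, the 40th percentile. The pairs come from the samples' descriptions, and the line or pair was a block. Deviations of samples of 1 line correlated at r = 0.089 to 0.574 over genes. Pairs of 1 sample each were counted at 2-fold and not tested. Values in every sample are given for genes that passed (at most the 6 with the smallest adjusted p per role), for the largest change per role, and for 2-fold differences between single samples. Genes named beyond that, and settings, are described as values. The code was checked on simulated data. The genes, lists and rule were chosen with earlier results of these data known. RefSeq promoter windows (GRCm38.p6) were searched for 3 motifs.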

Additional observations from a re-analysis of the deposited data

Results flagged for a closer look

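Under Dox, 12 of the 32 genes differed in one direction at both days in Max-null ESCs and in the opposite direction in the p110 alpha Max-null line. The share of all genes that did so was not counted. Over all genes, 56.7% and 53.8% were lower at days 4 and 6 in Max-null ESCs, and 39.7% in the p110 alpha line. Without Dox the p110 alpha line differed from Max-null ESCs by -1.06 (Wipi1) to 0.49 (Asah1) over these 12 genes. There was 1 array per condition, the day of Dox in the p110 alpha line is not given, and the difference between the lines was not tested. The values below are the mean of both Max-null days minus the value of the p110 alpha line (log2).

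Among hydrolases the difference was -1.72 for Neu1 (-1.53 against 0.19), -1.46 for Glb1 (-1.15 against 0.31), -1.36 for Gusb (-0.93 against 0.43), -0.61 for Asah1 (-0.48 against 0.12) and -0.51 for Ctsb (-0.44 against 0.07). Lamp2 differed by -1.51 (-1.36 against 0.14) and the pump gene Atp6v1a by -0.66 (-0.38 against 0.28). Of the autophagy genes, Gabarapl1 differed by -1.94 (-1.70 against 0.24), Wipi1 by -1.10 (-0.27 against 0.83) and Ulk1 by 0.45 (0.19 against -0.26). Among regulators the difference was -0.71 for Tfe3 (-0.47 against 0.24) and -0.55 for Tfeb (-0.29 against 0.27).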

How the results depend on the processing

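At day 5 in the 3 serum lines 11 of the 22 genes that passed kept their call under all 11 alternatives, and at day 2 5 of 19 (Hexa, Ctsd, Sqstm1, Tfeb and Tfe3). With all 18 arrays in 1 fit, which brings parental replicate 1 into the day 5 change, 11 passed at day 5 (13.0% of all genes) and 6 at day 2 (2.52%). In that fit 1 passed in parental cells at day 5 (0.96%) and 5 in the c-Myc lines (5.97%). Leaving out 1 replicate gave 6 to 18 at day 2, 18 to 21 at day 5, 0 to 23 in parental cells, 0 to 22 in the c-Myc lines, 0 to 6 for their difference and 0 to 4 with Dox. Without the replicate block 14 passed at day 2 (19.8% of all genes), 19 at day 5 (34.5%) and 0 in the c-Myc lines (0.328%). The last of these fits takes parental samples of both sets of arrays as 1 group, so the offset between the sets enters its spread. The c-Myc count of 1 (2.62% of all genes) became 5 with the filter at the 60th percentile (5.23%) and 2 with no filter (2.18%). It was 2 with the mean of all probe sets (2.26%) and 6 with a trended and robust prior (4.0%). It was 8 at a threshold of 0.1, where the share of all genes was not counted. At that threshold 1 passed in parental cells and 1 between day 5 and day 2. The day 5 minus day 2 count was 1 with the mean of all probe sets (2.51% of all genes) and 2 with the trended prior (5.31%). Leaving out 1 replicate moved Gabarapl1 in parental cells between -0.11 and 1.10 (full fit 0.49), the lowest without replicate 2, and Tfe3 with Dox between -0.47 and 0.0002 (full fit -0.17), the highest without the day 6 sample. The cause was not tested. Pairs of 1 sample each have no replicate check, and signal over background was not analysed here.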
